A study of Homo sapiens with 6 samples.

Results

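The kinesin family was examined as the 42 genes whose symbol is KIF or KIFC followed by a number and at most 1 letter, out of 39020 genes listed in either assay. Of these, 30 had a line in the iCLIP tables, 40 in the RNA-seq tables and 28 in both. They were divided by textbook role into 14 mitotic kinesins, 17 transport kinesins and 11 others. KIF2A was placed among the others, although its relatives KIF2B and KIF2C were placed in the mitotic class, and class ranges depend on that choice. The iCLIP libraries came from U2OS osteosarcoma cells that stably carry FLAG-tagged TIRR, the 53BP1-binding product of NUDT16L1. There were 2 untreated libraries and 2 libraries of cells harvested 4 h after an X-ray dose of 5 Gy. RNA-seq was made from wild-type U2OS cells without the tagged protein, with 1 untreated and 1 irradiated library (5 Gy, 4 h). The labels name X-rays for both assays, while the series text calls the RNA-seq dose gamma radiation. Empty-vector control cells were not used here, and the iCLIP counts have no background subtracted. The labels do not say whether replicate libraries are separate cultures, so p-values reflect only how far these particular libraries differ, possibly for technical reasons.

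Kinesins are motor proteins that use ATP to walk along microtubules or to take their ends apart. Most transport kinesins carry vesicles, mitochondria and other cargo toward the cell periphery, whereas mitotic kinesins build the spindle, align and separate chromosomes and complete cytokinesis. Genes of the second kind are made mostly in late cell cycle phases, and many such genes carry a cell cycle homology region close to the start of transcription, often downstream of CCAAT boxes, which NF-Y binds. Cell cycle homology regions are bound by MuvB complexes, which repress or activate these genes by cell cycle phase.

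The iCLIP libraries held 400723 to 799709 counts on genes, and the RNA-seq libraries 13015406 and 13023903. Irradiated iCLIP library 1 was the shallowest. The bone label was checked in RNA-seq, where 9 of 10 mesenchymal and osteoblast markers were above 0 (summed level 9224 CPM, counts per 1000000 on genes, untreated and 10308 irradiated, SP7 without a line). Most of that sum lay in VIM, COL1A1, SPARC and FN1, with 36294, 35832, 23955 and 22704 untreated counts. RUNX2 had 855, SPP1 288 and ALPL 113 untreated counts, while COL1A2 had 6 and BGLAP 3. The markers therefore show mesenchymal cells and do not settle the bone label. Of 5 blood cell markers, PTPRC had 12 counts in each library and HBB 0 and 1, and the other 3 had no line (summed level 0.922 and 0.998 CPM). The summed levels were 500.2 and 473 for 5 epithelial and 144 and 179 for 5 neuron markers, all of which were above 0. Most of the epithelial sum lay in KRT18 and KRT8, with 3836 and 2613 untreated counts, while EPCAM had 55, CDH1 5 and KRT19 1. Most of the neuron sum lay in TUBB3, with 1550 untreated counts.

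The promoters of the mitotic kinesins are shown because the 12 with at least 100 RNA-seq counts were lower together after irradiation, as described further on. RefSeq promoter windows (GRCh38.p14, 250 bases before to 50 after each annotated start) were matched for 14 of 14 mitotic, 12 of 17 transport and 8 of 11 other kinesins. They were searched on both strands for TTTGAA or TTCGAA, the core of a cell cycle homology region, and for CCAAT, and no match printed here overlaps another. Within 100 bases before to 20 after the start, a cell cycle homology region was found in 10 mitotic kinesins (71.4%), in 0 transport kinesins and in 1 other kinesin, KIF24. Over all 27305 genes with a window the share was 7.49%. A CCAAT box stood anywhere in the window of 11 mitotic kinesins (78.6%), 4 transport kinesins (33.3%) and 3 others (37.5%), against 39.7% of all genes. Both together, with the first near the start, were present in 9 of 14 mitotic kinesins, 0 of 12 transport kinesins and 3.08% of all genes. The 9 include KIF4B, a near-identical copy of KIF4A with only 2 and 3 RNA-seq counts. KIF2B, also among the 14, had no RNA-seq line. The stretches below run 5′ to 3′ from 100 bases before the start to 10 bases after it, and capitals mark the matches on either strand. The first 6 are mitotic kinesins that hold both motifs.
KIF14 (chr1:200620742-200620851, minus strand): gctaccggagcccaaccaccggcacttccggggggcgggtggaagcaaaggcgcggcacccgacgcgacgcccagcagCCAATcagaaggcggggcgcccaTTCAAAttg
KIF18A (chr11:28108147-28108256, minus strand): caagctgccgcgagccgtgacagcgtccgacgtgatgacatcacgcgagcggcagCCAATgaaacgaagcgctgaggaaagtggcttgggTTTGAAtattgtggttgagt
KIF18B (chr17:44947764-44947873, minus strand): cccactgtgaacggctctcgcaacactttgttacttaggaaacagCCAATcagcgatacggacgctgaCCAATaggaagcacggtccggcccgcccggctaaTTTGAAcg
KIF4A (chrX:70290004-70290113, plus strand): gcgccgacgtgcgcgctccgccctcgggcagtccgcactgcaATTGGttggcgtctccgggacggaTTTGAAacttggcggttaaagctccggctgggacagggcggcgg
KIF11 (chr10:92593030-92593139, plus strand): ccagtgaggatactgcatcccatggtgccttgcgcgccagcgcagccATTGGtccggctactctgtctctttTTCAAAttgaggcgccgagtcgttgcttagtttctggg
KIF23 (chr15:69414249-69414358, plus strand): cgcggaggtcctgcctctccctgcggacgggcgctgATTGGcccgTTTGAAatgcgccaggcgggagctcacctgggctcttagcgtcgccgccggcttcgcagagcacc
The next is KIF20A, the kinesin with the lowest RNA-seq ratio, which holds CCAAT boxes but neither form of the searched homology region.
KIF20A (chr5:138179012-138179121, plus strand): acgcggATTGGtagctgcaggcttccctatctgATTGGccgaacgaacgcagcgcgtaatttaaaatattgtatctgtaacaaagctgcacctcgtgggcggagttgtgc
The last are transport kinesins, shown for contrast near the start. KIF5B was the 1 transport kinesin of 12 with a homology region anywhere in its window. That match lies more than 100 bases before the start, outside the stretch printed here.
KIF5B (chr10:32056416-32056525, minus strand): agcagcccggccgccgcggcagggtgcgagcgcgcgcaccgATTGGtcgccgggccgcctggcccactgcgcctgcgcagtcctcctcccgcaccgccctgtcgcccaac
KIF3B (chr20:32277551-32277660, plus strand): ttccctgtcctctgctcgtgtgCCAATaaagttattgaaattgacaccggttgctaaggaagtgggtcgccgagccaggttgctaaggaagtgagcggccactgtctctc
In KIF14 the match begins at base 2 and in KIF18B at base 3 after the start, and in KIF18A, KIF11, KIF4A and KIF23 it begins 10, 28, 34 and 55 bases before it. A match is a sequence description, and binding was not measured. KIF2C, with an RNA-seq ratio of 0.544, held neither motif in its window. KIF15 (0.801) and KIF22 (0.751), the mitotic kinesins closest to 1 among those with at least 100 counts, held a homology region near the start. No match in KIF20A or KIF2C says only that these letters are not in the window. Among all genes with a window and at least 100 RNA-seq counts, 3.69% of the 542 with a homology region near the start and 0.430% of the 8837 without one passed the RNA-seq size rule downward, given as a description. The median ratios of these 2 sets were 0.951 and 0.999.

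**Figure D1:**
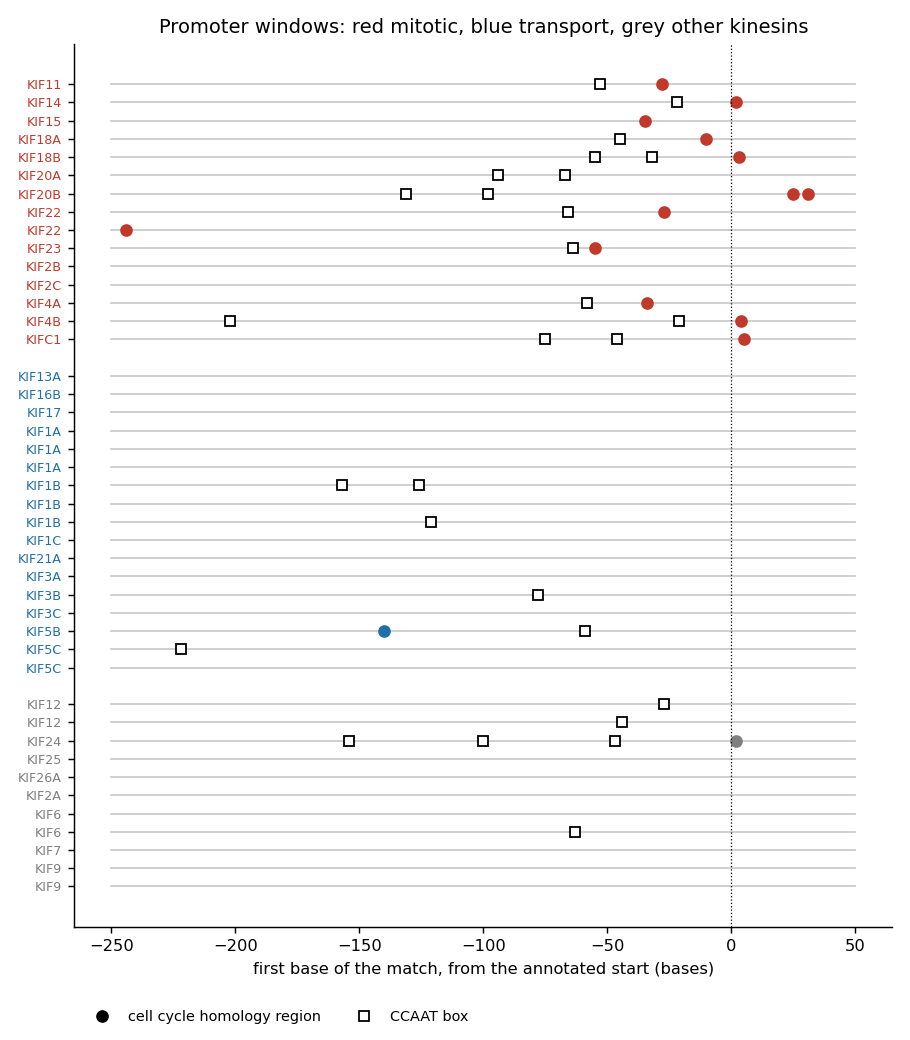
Matches in RefSeq promoter windows of the kinesin genes, 1 line per window, with the distance in bases of the first matched base from the annotated start on the x axis. Filled circles are cell cycle homology regions (TTTGAA or TTCGAA, either strand) and open squares CCAAT boxes; in the mitotic class 10 of 14 genes have a circle within 100 bases before to 20 after the start, in the transport class 0 of 12.

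RNA-seq addressed which kinesin RNAs changed in amount. All 12 mitotic kinesins that reached 100 counts were lower in the irradiated library, with a median ratio of 0.565, whereas 16 transport kinesins had a median ratio of 0.991. With 1 library per condition there is no test. Ratios are scaled by edgeR's TMM factors and carry exact 95% intervals for counting error only. In such bulk RNA, fewer cells in late cell cycle phases and less RNA per cell cannot be told apart. All 12 mitotic intervals lay wholly below 1, as did those of 22.0% of 12977 genes with at least 100 counts. The stricter size rule asked for at least a 2-fold difference and an interval beyond 1.5-fold. It was passed downward by 3 mitotic, 0 transport and 0 other kinesins and by 0.624% of all genes, and upward by 0 kinesins and 0.863% of all genes.

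KIF20A (ENSG00000112984, chromosome 5, 138179112 to 138187723), a motor of the central spindle needed for cytokinesis, went from 1828 to 427 counts, which is 4.33-fold lower (counting interval 3.89 to 4.82). KIF14, which works with citron kinase at the midbody, had 788 and 302 counts, 2.64-fold lower (counting interval 2.31 to 3.02). KIF18A, which dampens chromosome movements at the metaphase plate, had 776 and 340 counts, 2.31-fold lower (2.03 to 2.63). These were the kinesins past the size rule. Next came KIF2C, the microtubule depolymerase MCAK, at 2507 and 1380 counts (0.544, 0.509 to 0.582). KIFC1, a minus-end motor that focuses spindle poles, had 2328 and 1294 counts (0.550, 0.513 to 0.589). KIF18B, a plus-end motor of astral microtubules, had 1504 and 848 counts (0.558, 0.512 to 0.607). The centralspindlin motor KIF23 had 2261 and 1309 counts, a ratio of 0.572 (0.534 to 0.613). The other mitotic motors lay closer to 1. KIF4A, a chromosome-bound motor, had a ratio of 0.671 (0.615 to 0.732) and KIF11, the motor Eg5 that pushes spindle poles apart, 0.675 (0.632 to 0.720). KIF20B had 0.687 (0.623 to 0.756), the chromosome-arm motor KIF22 0.751 (0.688 to 0.819) and the spindle motor KIF15 0.801 (0.710 to 0.904). KIF4B, a near-identical copy of KIF4A, had 2 and 3 counts, and how reads were split between the copies is uncertain.

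The transport kinesins lay on both sides of 1. KIF5B, the ubiquitous conventional kinesin heavy chain, had 4025 and 3483 counts, a ratio of 0.856 (0.818 to 0.896). Its relative KIF5A, known mainly from neurons, had 356 and 273 counts (0.758, 0.645 to 0.890), while KIF5C had 344 and 360 (1.03, 0.890 to 1.20). The subunits of heterotrimeric kinesin-2 also differed from one another. KIF3C had 1115 and 768 counts, a ratio of 0.681 (0.620 to 0.747), KIF3B had 1476 and 1907 (1.28, 1.19 to 1.37), and KIF3A had 509 and 517 (1.00, 0.887 to 1.14). The intervals of KIF3B and KIF3C do not overlap. KIF1C, a Golgi and integrin vesicle motor, had 2274 and 2240 counts (0.974, 0.918 to 1.03) and KIFC2 882 and 656 (0.735, 0.664 to 0.815). KIF1A, a carrier of synaptic vesicle precursors, had the highest ratio of the kinesins with at least 100 counts, with 230 counts before and 422 after irradiation (1.81, 1.54 to 2.14). KIF21A had 535 and 661 counts (1.22, 1.09 to 1.37). In all, 5 transport kinesins had an interval wholly below 1 and 3 wholly above it, where 22.0% and 20.4% of all genes did. Of 5 other kinesins with at least 100 counts, 3 lay wholly below 1. KIF26A had 203 and 136 counts (0.662, 0.529 to 0.827), KIF24, a centriolar depolymerase, had 509 and 396 (0.769, 0.673 to 0.879), and KIF2A 1490 and 1307 (0.867, 0.805 to 0.935). The ciliary kinesin KIF7 had 846 and 800 counts (0.935, 0.848 to 1.03).

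**Figure D2:**
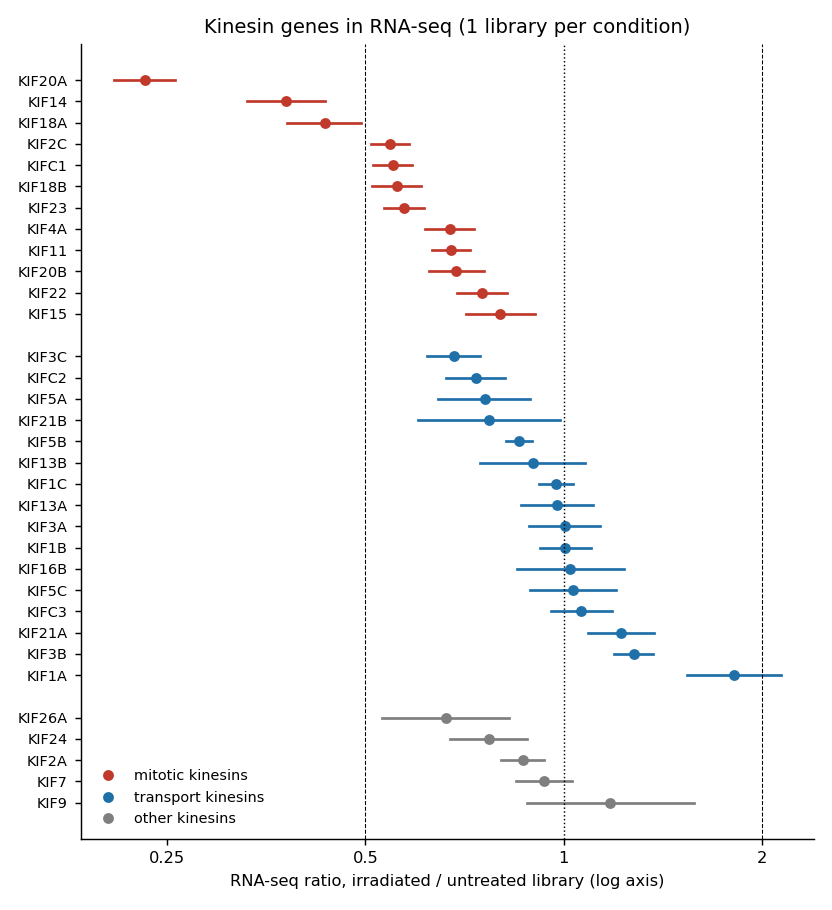
RNA-seq ratio of the irradiated to the untreated library for the 33 kinesins with at least 100 counts (log axis), with exact 95% counting intervals as bars and dashed lines at 2-fold. The mitotic kinesins run from 0.231 to 0.801, all below 1, and the transport kinesins from 0.681 to 1.81.

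Some kinesin genes share their locus with other genes. KIF20A overlaps CDC23, KIF15 TMEM42, KIF7 TICRR, KIF2A DIMT1, KIF24 UBAP1 and NUDT2, and KIFC2 TMEM276 and FOXH1 in the RefSeq table. Whether the counting used strand is not stated in any source at hand, so reads of overlapping genes may not be separable. For KIF2A the deposited length was 2320 bases in iCLIP and 8058 in RNA-seq against 84820 in RefSeq, so its counts in both assays may cover a part of the gene.

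The iCLIP comparison asked whether the kinesin RNA recovered with TIRR changed after irradiation. Of the 8 tested mitotic kinesins, 3 fell (KIF14, KIF18B and KIF4A) and 5 did not pass the edgeR quasi-likelihood test (adjusted p under 0.05 over 9230 genes), where 1.07% of all genes fell, 2.43% rose and 3.50% passed in either direction. No transport kinesin (of 10) and no other kinesin (of 6) passed, nor did any have an unadjusted edgeR p under 0.05. With DESeq2, and with edgeR on libraries thinned to equal depth, 0 kinesins of any class passed, the 3 mitotic ones included. DESeq2 gave no adjusted p for 15 of the 24 tested kinesins, among them KIF14 and all of the other class. Those 15 could not pass there, so DESeq2 does not decide on them. The median log2 fold change was -0.78 in the mitotic class, -0.03 in the transport class and -0.02 in the others, against 0.00157 over all genes. All 8 mitotic values were below 0, as were 49.8% of all tested genes, and 4 had an unadjusted p under 0.05, as had 6.21% of all genes in that direction. A difference between the classes was not tested. Of the other 12 kinesins, among them the abundant KIF11, KIF5B and KIFC1, no line stands in any iCLIP table, and they were not analysed there. The same holds for 20.8% of the 3090 genes with at least 1000 untreated RNA-seq counts, so a missing line is not read as a count of 0.

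KIF14 (ENSG00000118193, chromosome 1, 200551497 to 200620751) had 66.3 and 62.2 CPM before and 33.4 and 16.8 CPM after irradiation, from 53, 51, 13 and 11 raw counts. Both irradiated libraries lay well below both untreated ones. It fell by 1.46 ± 0.32 on the log2 scale (SE, 2.75-fold, edgeR adjusted p = 0.0138). KIF18B (ENSG00000186185, chromosome 17, 44924711 to 44947773) had 82.5 and 97.6 CPM before and 43.7 and 39.8 after irradiation. The groups did not overlap, and KIF18B fell by 1.12 ± 0.25 (SE, 2.18-fold, edgeR adjusted p = 0.0146). KIF4A (ENSG00000090889, chromosome X, 70290104 to 70420886) had 144 and 105 CPM before and 72.0 and 62.7 after. Again both irradiated libraries were lower, by 0.90 ± 0.23 on the log2 scale (SE, log2 fold change -0.90, 1.87-fold, edgeR adjusted p = 0.0311). Each call rested on particular libraries. Without irradiated library 2, the edgeR adjusted p was 0.223 for KIF14, 0.0726 for KIF18B and 0.131 for KIF4A. Without untreated library 1 it was 0.410 for KIF4A, and without untreated library 2 it was 0.103 for KIF18B.

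KIF20B, a late cytokinesis motor, had 83.8 and 84.2 CPM in untreated and 41.2 and 49.0 in irradiated cells (-0.87 ± 0.24 on the log2 scale, SE, edgeR adjusted p = 0.0555). KIF2C had 24 and 29 raw counts before and 7 and 14 after, a mean of 32.7 and 19.7 CPM (log2 fold change -0.70, edgeR adjusted p = 0.406). KIF23 had 43.8 and 30.5 CPM before and 25.7 and 27.5 after (-0.46, edgeR adjusted p = 0.602). Each of these 3 had both irradiated libraries below both untreated ones without passing the test. KIF15 had 124 and 135 CPM before and 103 and 112 after (-0.26, edgeR adjusted p = 0.583). In KIF22 the groups overlapped, with 20 and 14 raw counts before and 10 and 10 after, a mean of 21.0 and 20.5 CPM (-0.12 ± 0.44, SE, edgeR adjusted p = 0.944). Of the 8 tested mitotic kinesins, 7 had both irradiated libraries below both untreated ones, as had 22.0% of all tested genes. KIF20A was too sparse for the test, with 7 counts in the untreated and 2 in the irradiated libraries (ratio of the summed counts 0.444, 95% counting interval 0.0450 to 2.33). The depolymerase KIF2B had a single count.

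**Figure D3:**
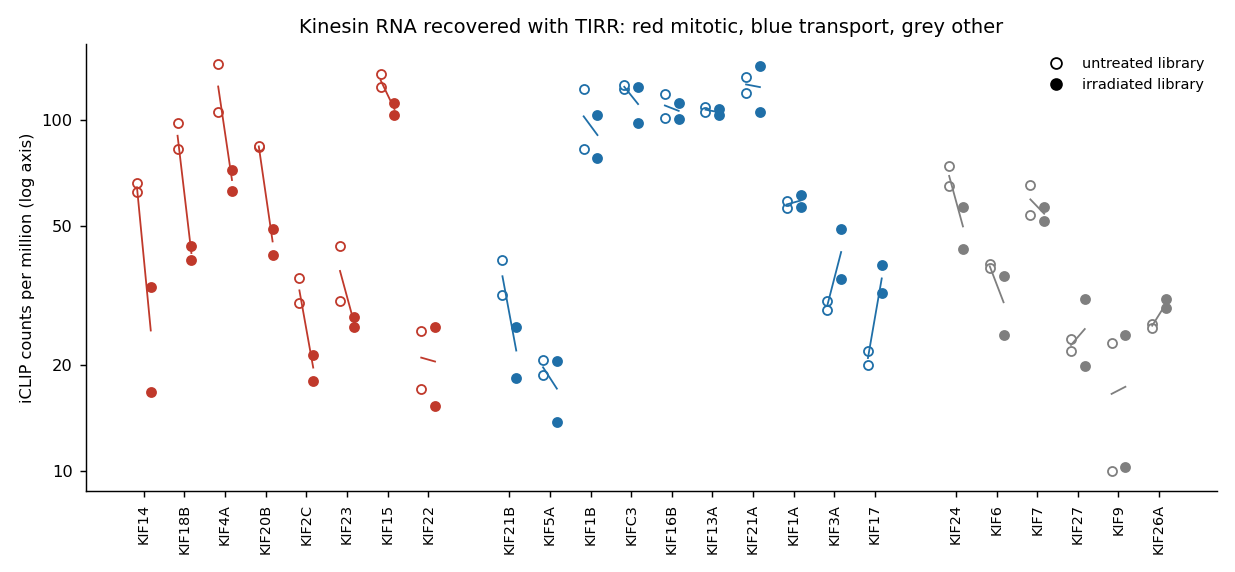
iCLIP CPM (log axis) of the 24 tested kinesins, each with its 2 untreated (open) and 2 irradiated libraries (filled) and a line between the group means. In 7 of 8 mitotic kinesins both filled points lie below both open ones, in the transport class this holds for 1 of 10, KIF21B. Over all tested genes it holds for 22.0%.

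The transport kinesins with the most iCLIP counts had overlapping levels before and after irradiation. KIFC3, a minus-end motor, had 123 and 126 CPM before and 97.7 and 124 after irradiation. KIF21A had 133 and 120 before and 105 and 142 after, and KIF13A, an endosome motor, 109 and 105 before and 103 and 107 after. In each the groups overlapped. KIF16B, which moves early endosomes, had 101 and 118 before and 100.3 and 112 after, and KIF1B, a carrier of mitochondria and synaptic vesicle precursors, 82.5 and 122 before and 103 and 78.0 after. Their log2 fold changes ran from -0.22 in KIF1B to 0.01 in KIF21A, with standard errors of 0.19 to 0.23 (edgeR adjusted p from 0.746 to 0.992). KIF3A, the partner subunit of KIF3B, had 28.8 and 30.5 CPM before and 48.9 and 35.2 after (0.45 ± 0.32, SE, edgeR adjusted p = 0.580), and KIF5A 18.8 and 20.7 before and 20.6 and 13.8 after (-0.27 ± 0.44, SE, edgeR adjusted p = 0.863). Such errors leave room for modest changes in either direction. KIF17, a kinesin-2 motor, had 16 and 18 raw counts before and 15 and 21 after irradiation, which in CPM is a mean of 21.0 ± 1.38 and 35.4 ± 4.56 (SD, n = 2), without overlap (log2 fold change 0.72 ± 0.36, SE, edgeR adjusted p = 0.364). KIF21B went the other way, with 40.0 and 31.7 before and 25.7 and 18.4 after (-0.75 ± 0.37, SE, edgeR adjusted p = 0.357). Of the 10 transport kinesins, 2 had both irradiated libraries above both untreated ones and 1 had them below. Over all tested genes these shares were 22.0% and 22.0%. KIF1A, with the highest RNA-seq ratio, had 56.3 and 58.6 CPM before and 56.6 and 61.2 after irradiation in iCLIP (0.05 ± 0.24, SE, edgeR adjusted p = 0.964).

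Among the other kinesins, KIF24 had 73.8 and 64.7 CPM before and 56.6 and 42.8 after irradiation (log2 fold change -0.52, edgeR adjusted p = 0.362), without overlap between the groups. KIF7 had 65.0 and 53.7 before and 51.4 and 56.6 after, KIF6 38.8 and 37.8 before and 36.0 and 24.5 after. KIF26A had 26.3 and 25.6 before and 30.9 and 29.1 after, and KIF27 23.8 and 22.0 before and 30.9 and 19.9 after. The groups did not overlap in KIF6, lower after irradiation, and in KIF26A, higher, and none of the 4 passed (edgeR adjusted p from 0.656 to 0.961). Of the 6 tested kinesins of this class, 2 had both irradiated libraries below both untreated ones and 1 had them above. Over all tested genes these shares were 22.0% and 22.0%. KIF9 differed between replicates more than between conditions, with 10.0 and 23.2 CPM before and 10.3 and 24.5 after. KIF2A, KIF12, KIF19 and KIF25 had 12 or fewer counts in all 4 libraries together and were not tested.

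Summed over the class, the 10 mitotic kinesins with an iCLIP line had 606 and 570 CPM before irradiation and 365 and 346 after it. The 10 transport kinesins had 712 and 754 before and 699.6 and 724 after irradiation. The mitotic sum was lower in both irradiated libraries, while the transport sums of both conditions overlapped. Per kb of deposited gene length, the level of the tested mitotic kinesins in untreated cells had a median of 1.16 CPM (range 0.928 to 3.92). That of the transport kinesins was 0.559 (0.364 to 1.19), and that of all tested genes 0.878. KIF18B had the highest level per kb of the family, 3.59 and 4.24 in the untreated libraries.

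Both assays could be set side by side for 21 kinesins. All 8 mitotic kinesins had a value below 0 on the log2 scale in both assays, as had 3 of 9 transport and 2 of 4 other kinesins and 29.8% of 7096 genes. KIF14 had the lowest value of the 21 in both, with log2 changes of -1.46 in iCLIP and -1.40 in RNA-seq. KIF18B had -1.12 and -0.84, KIF4A -0.90 and -0.58, and KIF20B -0.87 and -0.54. KIF2C, KIF23, KIF22 and KIF15 stood in the other order, with -0.70, -0.46, -0.12 and -0.26 in iCLIP and -0.88, -0.80, -0.41 and -0.32 in RNA-seq. Their iCLIP standard errors were 0.37, 0.35, 0.44 and 0.19. The RNA-seq values, from 1 library per condition, have no replicate error, so the gaps cannot be judged in either group. The iCLIP standard errors of KIF14, KIF18B, KIF4A and KIF20B were 0.32, 0.25, 0.23 and 0.24. A difference between the assays was not tested. Across the 21 genes Spearman's rho was 0.69 and Pearson's r 0.75, given as a description, since the genes share the same libraries (over all 7096 genes the rho was 0.25 and the r 0.39).

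**Figure D4:**
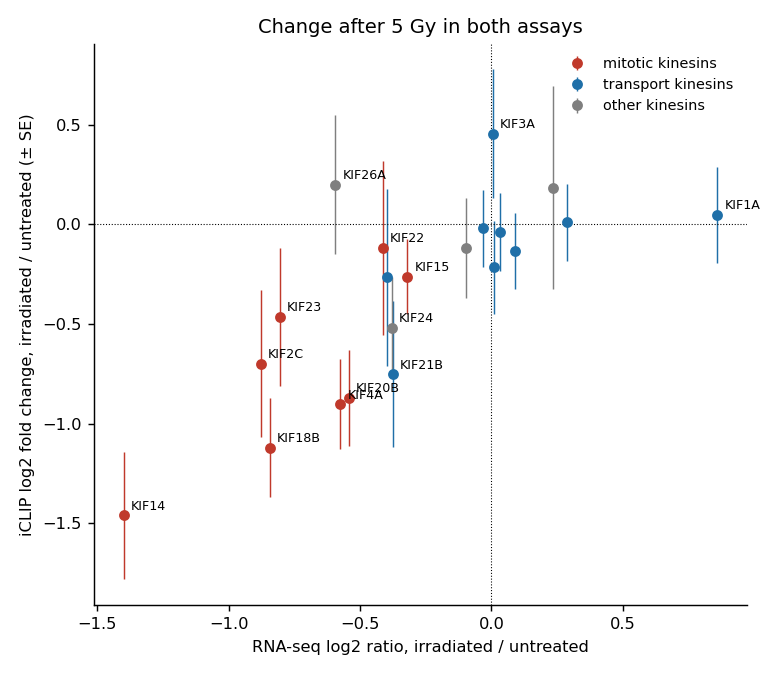
Log2 change after irradiation in RNA-seq (x axis, 1 library per condition) and in TIRR iCLIP (y axis, ± SE, 2 libraries per condition) for 21 kinesins. The 8 mitotic kinesins all lie below 0 on both axes, with KIF14 lowest, and KIF1A stands far right at an iCLIP change of 0.05.

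The share of iCLIP counts was divided by the share of RNA-seq counts in untreated cells to describe which kinesin RNAs were recovered more or less than their amount. It covers 24 kinesins with at least 50 RNA-seq counts and an iCLIP line. The 9 transport kinesins had a median log2 ratio of 1.49 (2.80-fold) and the 9 mitotic ones -0.32 (1.24-fold lower), against -0.19 over 11385 genes. The classes differ in length as well, with a median deposited length of 111 kb for the transport and 34.2 kb for the mitotic kinesins. Over the 24 kinesins the ratio was higher for longer genes (Spearman's rho 0.81, a description over genes that share libraries), as it did over all genes (rho 0.64). The part of length in the difference between classes was not tested. Kinesins of at least 100 kb had a median 2.83-fold above an equal share (n = 8, against 3.37-fold for all genes of that length), and those under 30 kb a median 5.65-fold below it (n = 5, against 2.93-fold). The 5 include KIF2A, whose deposited iCLIP length is 2320 bases against 84820 in RefSeq. The rho of the 24 kinesins uses that short length too.

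KIF16B, of 301 kb, stood highest of these 24 with a log2 ratio of 2.70 (2.58 and 2.81 with the single untreated iCLIP libraries). KIF6, with 36 untreated RNA-seq counts, was below the minimum for this ratio and is not ranked. KIF20A, of 9.01 kb, and KIF2A, with its short deposited length, had the 2 lowest values, -4.79 (-4.08 and -6.23) on 7 and -4.70 (-5.16 and -4.35) on 6 iCLIP counts, and their order differed between the libraries. Kinesins of similar length still differed. The mitotic motors KIF15, of 109 kb, and KIF4A, of 131 kb, had log2 ratios of 1.52 (1.45 and 1.58) and 0.36 (0.57 and 0.12), and the single-library values did not overlap. KIF18B, of 23.0 kb, had -0.32 (-0.44 and -0.20), far above KIF2C, of 28.0 kb, at -2.50 (-2.62 and -2.38). In irradiated cells KIF15 had 1.49 and KIF4A -0.02, and KIF18B had -0.64 and KIF2C -2.39, so the order within each pair was the same.

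**Figure D5:**
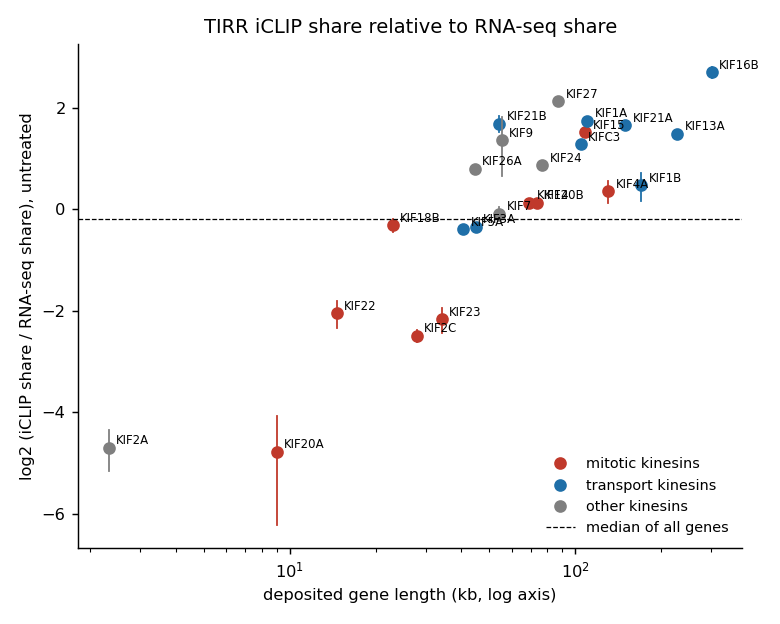
Log2 ratio of the iCLIP share to the RNA-seq share in untreated cells against deposited gene length (log axis) for 24 kinesins, with lines joining the values of the 2 untreated iCLIP libraries and a dashed line at the median of all genes, -0.19. Kinesins under 30 kb lie at or below -0.32 and those of at least 100 kb at or above 0.36.

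Partners of the motors were described from lists of their own. Of 9 partners of mitotic kinesins, 5 were tested in iCLIP and 3 fell, where 1.07% of all genes did, with a median log2 fold change of -0.76. They were TPX2, which targets KIF15 and KIF11 to the spindle (-1.10, edgeR adjusted p = 0.0240), RACGAP1, which forms centralspindlin with KIF23 (-0.98, edgeR adjusted p = 0.0319), and citron kinase CIT, the partner of KIF14 (-0.76, edgeR adjusted p = 0.0205). Leaving out 1 library raised the adjusted p to 0.259 for TPX2 (without untreated 2) and 0.0543 (without irradiated 2), to 0.202 for CIT (without untreated 1) and to at most 0.106 for RACGAP1 (without irradiated 1, 0.0880 without untreated 1 and 0.0814 without untreated 2). DESeq2 ended all 3 calls, with adjusted p of 0.199 for TPX2, 0.251 for RACGAP1 and 0.176 for CIT. Thinning ended those of TPX2 (edgeR adjusted p = 0.127) and RACGAP1 (0.176), and the replicate block those of RACGAP1 (0.0746) and CIT (0.0593). In RNA-seq 8 of the 9 lay wholly below 1, as did 22.0% of all genes. The size rule was passed downward by 2 partners and 0.624% of all genes. They were CENPE, a centromeric kinesin outside the symbol rule (1262 and 484 counts, 2.64-fold lower), and TPX2 (4619 and 2266 counts, 2.06-fold lower). MAPRE1, the plus-end protein EB1, was the exception (2266 and 2546 counts, 1.11, 1.05 to 1.18). Of 21 kinesin light chains and cargo adaptors, 15 were tested in iCLIP and 0 passed in edgeR or in DESeq2, with 1 at an unadjusted edgeR p under 0.05 and a median of -0.07. TRAK1, a mitochondrial adaptor, had 145 and 143 raw iCLIP counts before and 65 and 110 after irradiation (log2 fold change -0.08, edgeR adjusted p = 0.881). KLC1, the main light chain of KIF5 motors, had 91 and 109 raw iCLIP counts before and 58 and 66 after irradiation (log2 fold change -0.03). In RNA-seq 0 of 19 adaptors passed the size rule, with a median ratio of 0.939. FEZ1, an adaptor of KIF5, had 1489 and 2258 counts (counting interval of the ratio 1.40 to 1.60).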

How the data were processed

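Gene tables of 6 libraries were used, of which 4 were iCLIP and 2 RNA-seq. Per the file headers, the authors deposited the number of cDNAs on each gene as a raw count, its percent of all cDNA in the library, and a length in bases. Intergenic counts (30.6% to 31.3% of iCLIP and 44.4% of RNA-seq counts) were left out. The build is hg38, and kallisto 0.44.0 is named for RNA-seq, per the submitters' processing notes. No source used here gives the aligner, duplicate removal, annotation release or strandedness.

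The iCLIP counts of all genes were fitted with the edgeR 4.0.16 quasi-likelihood test in R 4.3.3 (TMM, filterByExpr, two-sided, Benjamini-Hochberg at 0.05), and CPM use the same scaling. The standard error is the log2 fold change over the square root of F. DESeq2 1.42.0 was an alternative. The edgeR step was tested on simulated data. A gene with no line in 1 iCLIP table but a line in another counted as 0. RNA-seq ratios carry exact conditional 95% intervals. Shares used a prior count of 0.5. Intervals cover counting error only. Python 3.11.15, scipy 1.17.1 and matplotlib 3.10.9 were used, and positions and promoters came from RefSeq (GRCh38.p14).

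The members, classes and lists were chosen with earlier results of these data known. All kinesins may be named. Values in every library are given for those past a threshold and for the 5 with the most iCLIP counts in each class. Of the partner lists, members past a threshold and up to 3 with the most counts in an assay are named, and DYNC1H1 was named after its values were seen. Alternatives were other scaling, filters, depth, libraries left out and a replicate block.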

Additional observations from a re-analysis of the deposited data

How the results depend on the processing

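Of the 24 tested kinesins, 3 passed in iCLIP, against 0 with DESeq2, 0 with libraries thinned to equal depth, 0 to 3 with 1 library left out (0 without irradiated 2), 4 with library totals (KIF20B added, edgeR adjusted p = 0.0390) and 2 with a replicate block. In DESeq2 the adjusted p was 0.167 for KIF18B and 0.244 for KIF4A and not given for KIF14, while 4 kinesins had an unadjusted p under 0.05. The number was the only link between same-numbered libraries (correlation of their deviations -0.0935), and the block took KIF4A to an edgeR adjusted p of 0.0700. Thinning gave 0.0783 for KIF14, 0.0898 for KIF18B and 0.190 for KIF4A. Of 221 values for single genes under an alternative, 209 stayed on their side of the threshold, 11 lost and 1 gained a call, and none turned a called direction. The 221 hold no DESeq2 value for the 15 kinesins without an adjusted p, so the missing call of KIF14 there is not counted. They include the RNA-seq ratios of KIF20A, KIF14 and KIF18A with library totals, which carry no test. The mitotic median stayed between -0.91 and -0.69 in all 11 settings, and all tested mitotic kinesins were below 0 except KIF22 without untreated 1 and without irradiated 2. The transport median ran from -0.19 to 0.01. Over all genes 323 of 9230 passed, against 122 with DESeq2, 190 with the block and 316 with library totals. After thinning 222 of 7283 tested genes passed, while no kinesin did. In RNA-seq 3 kinesins passed the size rule, and 9 in either direction with a 1.5-fold minimum and an interval beyond 1. The 9 include KIF26A, of the other class, lower at 0.662, and the transport kinesin KIF1A, higher at 1.81. The share of all genes under this looser rule was not computed, so the 9 is not read as a result about kinesins. The median log2 share ratio of 0.41 became 0.48 with a prior count of 5, 0.13 with at least 200 RNA-seq counts, and 0.37 to 0.43 with 1 untreated library left out. Sparse genes limit the iCLIP test: standard errors reached 0.44 in the mitotic and transport classes and 0.51 in the others.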

Other observations

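Cytoplasmic dynein, the motor that walks opposite to most kinesins, was described with its activator dynactin and adaptors from a list of 25 genes. In iCLIP 13 were tested and 1 fell (1.07% of all genes did), NDE1, a dynein regulator of centrosomes and kinetochores, with 102 and 119 raw counts before and 32 and 48 after irradiation (log2 fold change -0.82, edgeR adjusted p = 0.0271). Its call ended without untreated library 2 (edgeR adjusted p = 0.211) and without irradiated library 2 (0.149), as well as with DESeq2 (0.255) and with the replicate block (edgeR adjusted p = 0.0713). The list's median log2 fold change was 0.07. In RNA-seq NDE1 had 789 and 356 counts, 2.24-fold lower, and was the one member of 24 with at least 100 counts to pass the size rule, as 0.624% of all genes did downward. The list's median ratio was 1.03. DYNC1H1, the dynein heavy chain, had 2015 and 2825 counts (1.39, counting interval 1.31 to 1.47), while the dynactin subunit DCTN1 had 2367 and 2541 (1.06, 1.00 to 1.12).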
